A study of Mus musculus with 4 samples.

Results

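Open chromatin at the ends of single genes was examined in newborn mouse heart, for the regions that kept an ATAC-seq peak when miR-187 was overexpressed. ATAC-seq cuts accessible DNA with a transposase, and a peak is a stretch where the reads pile up above the local background. Overlapping peaks of the 4 libraries on chromosomes 1 to 19 were joined, with 1 bp sufficing, which gave 20624 regions, and 6706 of them had their midpoint within 1 kb of a boundary (start or end) of exactly 1 protein-coding gene. A peak in both WT libraries was present in 2173 of these, and 1343 of the 2173 (61.8%, Wilson 95% interval 59.7% to 63.8%) also held a peak in at least 1 miR-187 library. These 1343 regions, at 1341 genes, are the members described here, and the other 830 are called WT-only regions. The members were chosen by the presence of listed peaks in these same libraries, so the counts and strengths that follow are descriptions, with no test between genotypes. Over all 4204 regions with a peak in both WT libraries, near a gene or not, 57.8% held a peak in at least 1 miR-187 library. Replicate 1 of miR-187 held a peak at 55.1% of those regions and replicate 2 at 9.73%.

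The 4 libraries were 2 of WT heart and 2 of heart from miR-187 overexpressing mice at P0 (the day of birth). In the methods of the study, miR-187 was inserted at Rosa26 under the endothelial Tek (Tie2) promoter, and CD31 beads captured the cells, whereas the labels give heart tissue without a sort. The mice had a C57BL/6J background. The study compared homozygous knock-in (KI/KI) with +/+ mice in its mouse ATAC-seq, and the labels of these libraries give no zygosity. It used animals of both sexes, and the sex behind each library, the litter and any pooling are not given in the sources used here, and with 2 libraries against 2 an exact two-sided permutation test cannot go below p = 0.33. The libraries differed in yield: 9307 and 12155 autosomal peaks were listed for the WT pair, replicate 1 before replicate 2, and 7407 and 1461 for the miR-187 pair. The background read density inferred from the peak values was 1751.5 and 5227 reads per Mb in WT and 2016 and 1032.5 reads per Mb with miR-187. Replicate 2 of miR-187 was thus both the shallowest library and the one with the shortest list, and the part of depth in the results below was not tested. Values of several libraries are given with WT before miR-187 and replicate 1 before replicate 2.

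Gene starts are the most regularly open sites of mammalian chromatin. A promoter of a widely used gene is usually a CpG-rich, nucleosome-depleted stretch bound by factors such as SP/KLF, NF-Y, ETS and NRF1, and it remains accessible in most cell types, whereas enhancers away from genes are more cell-type specific. NIPBL, the cohesin loader that the study examined as a target of miR-187, acts at both promoters and enhancers. A microRNA lowers the output of its target transcripts and does not itself bind chromatin.

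Promoter sequences of members that ranked high in their lists are shown because the kept regions lie on or across them. They are the 200 bases just before a listed start in the RefSeq table of GRCm38.p6 (the mm10 build), read 5′ to 3′ along the gene. A listed start can lie inside the gene, away from the gene boundary that was used for membership. At Ep400, Cblb and Bms1 all printed bases thus lie inside the gene, and at Snx11, Gatad2a and Bcl2l13 a part of them does. Capitals mark matches, on either strand, to 11 motifs that are spelled out with the promoter composition below. Ep400 (chr5:110770718-110770917, minus strand), Ifngr1 (chr10:19591749-19591948, plus strand), Rhob (chr12:8500010-8500209, minus strand) and Cblb (chr16:52031349-52031548, plus strand) held a peak in all 4 libraries. The member region covered all 200 bases at each of them.
Ep400: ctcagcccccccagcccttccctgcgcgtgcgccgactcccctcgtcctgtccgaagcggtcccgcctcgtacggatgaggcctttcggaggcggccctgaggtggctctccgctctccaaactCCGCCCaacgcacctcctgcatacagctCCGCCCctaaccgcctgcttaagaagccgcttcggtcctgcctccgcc
Ifngr1: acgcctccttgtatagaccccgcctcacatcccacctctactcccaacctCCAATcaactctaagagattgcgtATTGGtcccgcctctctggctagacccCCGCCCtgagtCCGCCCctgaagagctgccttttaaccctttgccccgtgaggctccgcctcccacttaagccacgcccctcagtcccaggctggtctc
Rhob: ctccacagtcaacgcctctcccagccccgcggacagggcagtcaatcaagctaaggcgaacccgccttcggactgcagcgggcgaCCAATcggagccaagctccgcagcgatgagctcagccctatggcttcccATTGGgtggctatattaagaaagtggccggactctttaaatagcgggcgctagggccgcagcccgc
Cblb: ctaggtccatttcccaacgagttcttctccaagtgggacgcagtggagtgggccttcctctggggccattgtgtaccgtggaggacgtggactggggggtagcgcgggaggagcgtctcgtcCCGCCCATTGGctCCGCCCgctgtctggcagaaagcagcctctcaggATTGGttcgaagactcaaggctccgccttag

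Gatad2a (chr8:69996385-69996584, minus strand) and Snx11 (chr11:96777556-96777755, minus strand) were kept in miR-187 replicate 1 alone. Bms1 (chr6:118419418-118419617, minus strand), Bcl2l13 (chr6:120836030-120836229, plus strand) and Rptor (chr11:119602705-119602904, plus strand) were kept in miR-187 replicate 2 alone. The regions covered all 200 printed bases at Gatad2a, Snx11 and Bcl2l13, 123 at Bms1 and 77 at Rptor.
Gatad2a: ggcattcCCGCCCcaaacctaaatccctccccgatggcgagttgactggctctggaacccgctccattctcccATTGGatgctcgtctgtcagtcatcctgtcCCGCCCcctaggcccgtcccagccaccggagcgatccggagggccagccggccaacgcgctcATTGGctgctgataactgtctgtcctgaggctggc
Snx11: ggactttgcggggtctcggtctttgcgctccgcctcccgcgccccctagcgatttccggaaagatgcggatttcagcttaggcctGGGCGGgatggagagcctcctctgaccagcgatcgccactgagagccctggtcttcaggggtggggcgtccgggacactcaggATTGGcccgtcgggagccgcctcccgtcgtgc
Bms1: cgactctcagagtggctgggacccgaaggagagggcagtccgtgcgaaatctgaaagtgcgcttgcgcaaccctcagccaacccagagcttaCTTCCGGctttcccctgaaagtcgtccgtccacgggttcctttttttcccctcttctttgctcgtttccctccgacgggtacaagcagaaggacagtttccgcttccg
Bcl2l13: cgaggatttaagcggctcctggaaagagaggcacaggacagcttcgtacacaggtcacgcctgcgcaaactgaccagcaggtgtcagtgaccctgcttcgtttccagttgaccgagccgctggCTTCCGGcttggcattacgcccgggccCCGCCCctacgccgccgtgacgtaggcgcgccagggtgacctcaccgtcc
Rptor: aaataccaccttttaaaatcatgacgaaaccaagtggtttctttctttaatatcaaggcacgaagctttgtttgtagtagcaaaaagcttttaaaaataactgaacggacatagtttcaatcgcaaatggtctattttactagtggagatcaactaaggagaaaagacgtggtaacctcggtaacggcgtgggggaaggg

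The printed promoters differed in what they held. Ep400 had 2 GC boxes, and Ifngr1, Cblb and Gatad2a each had 2 GC boxes and 2 CCAAT boxes. Rhob had 2 CCAAT boxes and no GC box within these 200 bases, Snx11 had 1 of each, Bcl2l13 had 1 GC box and 1 ETS match, and Bms1 had 1 ETS match. The Rptor stretch held none of the 11 motifs and was 38.5% G and C, against 57.5% to 69% in the other 8. The 9 printed are a choice, made with their sequences in view, among 16 promoters read from members that ranked high, of which Pigu, Hipk1 and Mthfd2l also held no match, at 51.5%, 71% and 63.5% G and C.

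Almost all members were kept through miR-187 replicate 1. Of the 1343 members, 1113 (82.9%, 80.8% to 84.8%) had a peak in miR-187 replicate 1 alone, 170 (12.7%, 11.0% to 14.5%) in both miR-187 libraries and 60 (4.47%, 3.49% to 5.71%) in miR-187 replicate 2 alone. Replicate 1 thus held 1283 members and replicate 2 held 230. Leaving out miR-187 replicate 1 left 226 members, 10.5% of the single-gene boundary regions with a peak in both WT libraries, whereas leaving out miR-187 replicate 2 left 1283, or 59.0%. Leaving out WT replicate 1, so that a peak in WT replicate 2 sufficed, gave 2247 members. When each list was cut to its 1461 strongest peaks, 112 regions qualified and 40 of them (35.7%) had a peak in miR-187 replicate 2, against 17.1% with the full lists.

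Sharing between libraries of the same genotype was not uniformly higher than between genotypes. Among the 3018 regions near exactly 1 gene with a peak in miR-187 replicate 1, 70.9% also had one in WT replicate 2, 49.7% in WT replicate 1 and 8.05% in miR-187 replicate 2. Among the 3246 with a peak in WT replicate 1, 66.9% also had one in WT replicate 2, the longest list, and 46.2% in miR-187 replicate 1. Among the 458 with a peak in miR-187 replicate 2, 72.3% had one in WT replicate 2 and 53.1% in miR-187 replicate 1. In each of these comparisons the highest share fell to the longest list and, where it was a partner, the lowest to the shortest.

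The stronger a region was in WT, the more often it was a member. The 2173 regions were divided into 5 classes of nearly equal size by the lower of their percentile ranks of −log10 q in the WT lists. From the weakest class to the strongest, 47.6%, 57.6%, 60.3%, 66.7% and 76.9% were members. For miR-187 replicate 2 the shares were 7.13%, 9.45%, 9.86%, 11.2% and 15.3%, so both libraries rose with WT strength and the gap between them remained wide in every class. Regions near boundaries of at least 2 genes were kept at 63.7% (59.4% to 67.8%, 319 of 501) and regions near no boundary at 50.2% (47.7% to 52.7%, 768 of 1530). Intervals cover counting error only, and regions of 1 library are not replicates.

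**Figure D1:**
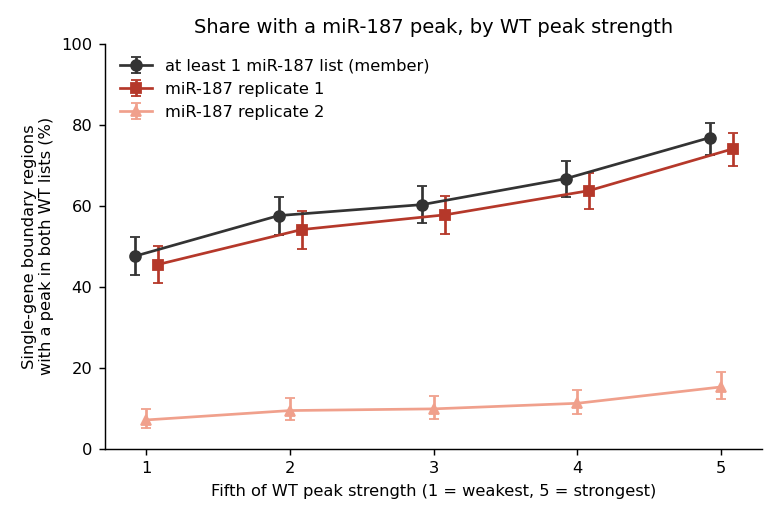
Share of single-gene boundary regions with a peak in both WT libraries (y axis, %) that held a peak in at least 1 miR-187 library, in replicate 1 or in replicate 2, by class of WT peak strength (x axis, 1 weakest to 5 strongest). Points are shares and bars Wilson 95% intervals; membership rises from 47.6% to 76.9%, and replicate 2 stays between 7.13% and 15.3%.

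Members lay on gene starts. The strand was known for 1097 members, and the nearest boundary was the gene start in 1079 of them (98.4%, 97.4% to 99%) and the gene end in 18. The share was 97.8%, 98.6% and 95.7% for members held in both miR-187 libraries, in replicate 1 alone and in replicate 2 alone, and 97.3% for WT-only regions. Over all regions near 1 gene it was 95.3% (5145 of 5401 with known strand), so gene starts prevailed in the whole set. The midpoint of start regions was at a median of 46 bp inside the gene, and 39.9% had it upstream. Members reached across the boundary in 83.2% of cases (81.1% to 85.1%), compared with 70.4% (67.2% to 73.4%) of WT-only regions and 58.2% of all 6706 regions near 1 gene. The midpoint was within 250 bp of the boundary in 73.4% of members and 69.8% of WT-only regions. Members were also the wider set, and the part of width in this was not tested.

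**Figure D2:**
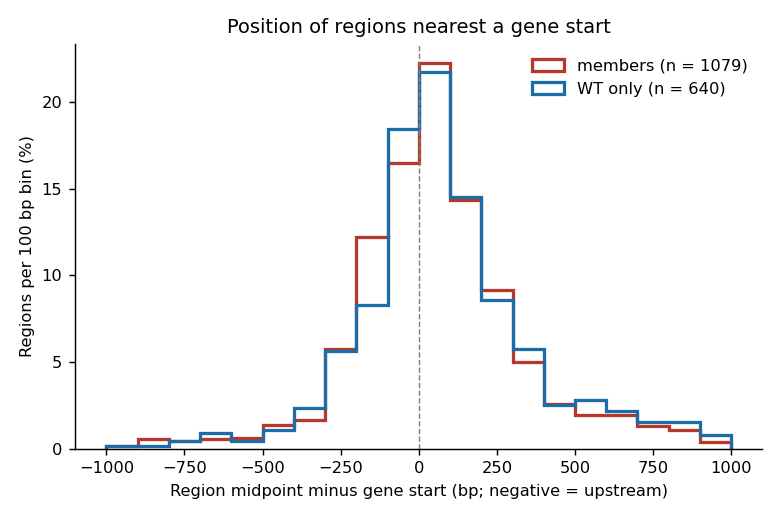
Position of region midpoints relative to the gene start (x axis, bp, negative upstream) for the 1079 members and 640 WT-only regions nearest a gene start with known strand (y axis, % of regions per 100 bp bin). Both sets are centred just inside the gene, with medians of 46 bp for members and 49.75 bp for WT-only regions.

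Regions held in more libraries were wider. Member regions had a median width of 608 bp (interquartile range 494.5 to 751 bp, full range 253 to 1459 bp), and WT-only regions, merged from fewer libraries, had 480 bp (379 to 606.5 bp). Members held in all 4 libraries had a median of 662.5 bp, those held in replicate 1 alone 604 bp and those in replicate 2 alone 548 bp. The single peaks inside members had median widths of 341 and 471 bp in the WT pair and 346 and 241 bp in the miR-187 pair. The peaks of members were wider than those of the whole list in each library, where the medians were 276, 324, 287 and 214 bp. Members were chosen by overlap of peaks, which wide peaks meet more readily, so the difference between these sets is no result. The order of the libraries was that of their inferred read density in both sets.

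**Figure D3:**
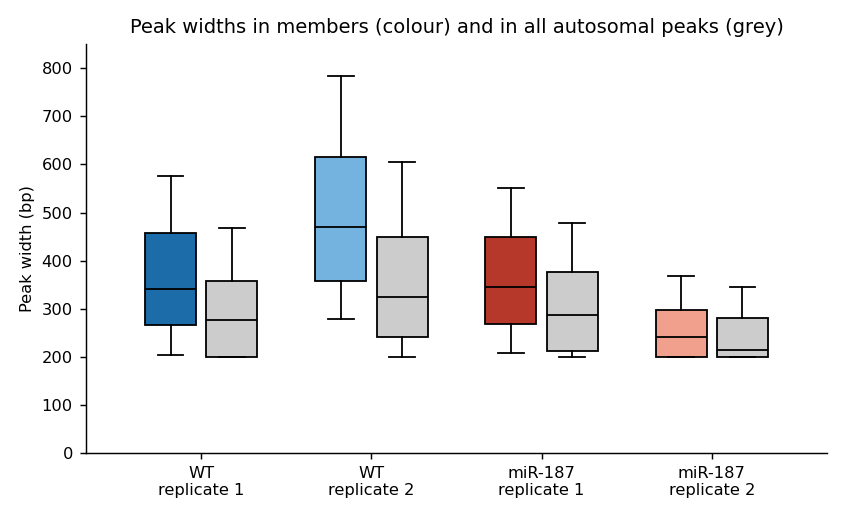
Peak width (y axis, bp) in the 4 libraries, for the strongest peak of each member (colour) and for all autosomal peaks (grey). Boxes span the interquartile range with the median as a line, and whiskers run from the 10th to the 90th percentile; member medians are 341, 471, 346 and 241 bp.

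Peak positions inside members were compared next. The merging itself requires a miR-187 peak to touch a WT peak in every member, so that overlap is no result. The peaks of both WT libraries overlapped each other directly in 98.7% of members. The summit lay within 100 bp of that of WT replicate 2 in 53.2% of the 1343 members for WT replicate 1, in 55.8% of the 1283 members with a peak in miR-187 replicate 1 and in 52.2% of the 230 with a peak in miR-187 replicate 2. These shares cover different members and were not tested against each other. More than 1 peak was listed in 1.64% and 1.94% of members in the WT pair and in 1.79% of those with a peak in miR-187 replicate 1. None of the 230 members held in replicate 2 had more than 1, and a count of 0 there allows a share of up to 1.3% (3 counts of 230).

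Fold enrichment at the summit, the read pileup over the local background with 1 added to each, had similar medians in the libraries. The added 1 weighs more where reads are few, so like folds need not mean like plain ratios of pileup to background. Its medians over members were 5.79 and 5.80 in the WT pair, 5.95 over the 1283 members of miR-187 replicate 1 and 5.56 over the 230 members of replicate 2. Replicate 1 of miR-187 was above both WT values in 37.4% of its 1283 members and below both in 28.7%, and replicate 2 was above both in 24.8% of 230 and below both in 37.4%. These shares cover different members, and over all autosomal peaks the median fold was 5.18 and 5 in the WT lists and 5.56 and 5.41 in the miR-187 lists. The number of reads behind a summit differed more, with medians of 10, 17, 10 and 7 reads, and −log10 q had medians of 4.40, 6.91, 4.78 and 3.07. Across the 170 members in all 4 libraries, fold correlated weakly between libraries, with Pearson r of 0.40 between the WT libraries, 0.27 between the miR-187 libraries and 0.25 to 0.42 between genotypes. Spearman's rank coefficient was 0.19, 0.10 and 0.02 to 0.30 in the same comparisons. These describe regions of the same 4 libraries, not independent samples.

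The strongest members in all 4 libraries, ranked by their lowest percentile of −log10 q, served mixed cell functions. Lars2, the mitochondrial leucyl-tRNA synthetase, stood apart with folds of 14.5 and 17.5 in WT and 16.2 and 11.4 with miR-187. Its region (chr9:123461705-123462268, 564 bp) lay at the end of the gene, 688.5 bp inside it, and rested on 40, 117, 63 and 22 summit reads. It is a gene-end region and not a promoter, and no list of problem regions of the genome was applied here. Dnajc16, a DnaJ-family co-chaperone, had folds of 9.40, 8.20, 7.33 and 8.75 in the same order. Ep400, the ATPase of the TIP60/p400 remodelling complex, had 7.29, 7.01, 9.91 and 7.14. At Dnajc16 miR-187 replicate 1 lay below both WT values, at Ep400 it lay above both, and replicate 2 lay between them at both genes.

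Pigu, a subunit of the GPI transamidase, had folds of 11.7, 7.25, 9.09 and 6.88, highest in a WT library and lowest in miR-187 replicate 2. Ifngr1, the ligand-binding chain of the interferon gamma receptor, had 7.63, 6.45, 6.61 and 7.53, both miR-187 values lying between the WT values. Mcur1, a regulator of mitochondrial calcium uptake, had 8.11, 7.23, 6.84 and 7.5. Cblb, an E3 ubiquitin ligase, had 6.14, 6.28, 6.30 and 8.78 and was highest in miR-187 replicate 2. Rhob, a small GTPase, had 6.11, 5.80, 5.93 and 6.94. The remaining strongest members, both at gene ends, were Bcan, which encodes the matrix proteoglycan brevican, with 6.34, 7.46, 8.21 and 7.22, and 1700001O22Rik with 6.25, 6.18, 8.40 and 6.76. Of these 10 members, miR-187 replicate 1 was above both WT values at 4 and below both at 2.

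The members kept in miR-187 replicate 1 alone included regions as strong as these. Etnk1, ethanolamine kinase, had folds of 8.02 and 7.92 in WT and 11.6 in miR-187 replicate 1, and no peak in replicate 2. Tmem11, an inner mitochondrial membrane protein, had 10.2, 8.33 and 9.58. Gatad2a, a subunit of the NuRD complex, had 7.81, 7.14 and 8.66, and Snx11, a sorting nexin, had 7.87, 8.49 and 9.66. Csrp1, a LIM domain protein, was kept at the gene end with 9.46, 8.44 and 8.19. All 5 ranked at or above the 97.4 percentile of −log10 q in each of their lists, and no peak was listed at them in the shallower miR-187 library.

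The members kept in miR-187 replicate 2 alone were fewer, 60 against 1113 for replicate 1 alone. WT folds of the top 5 ran from 5.87 to 8.94, against 7.14 to 10.2 for the top 5 of replicate 1 alone. A top 5 of a larger set lies higher by construction. Over all of these members the median WT folds were 5.64 and 5.57 for replicate 2 alone and 5.77 and 5.77 for replicate 1 alone. Rptor, which encodes the raptor subunit of mTORC1, had folds of 8.33 and 8.94 in WT and 7.86 in miR-187 replicate 2. Bms1, a GTPase of small ribosomal subunit assembly, had 7.07, 7.09 and 7.64. Bcl2l13, a mitochondrial member of the BCL2 family, had 6.59, 6.03 and 6.62. Mthfd2l, an enzyme of mitochondrial folate metabolism, had 6.25 in each of its 3 libraries, and Hipk1, a nuclear protein kinase, had 6.60, 5.87 and 6.08. No peak was listed at these 5 genes in miR-187 replicate 1, although that library listed 7407 peaks. Their replicate 2 summits held 7 to 10 reads.

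**Figure D4:**
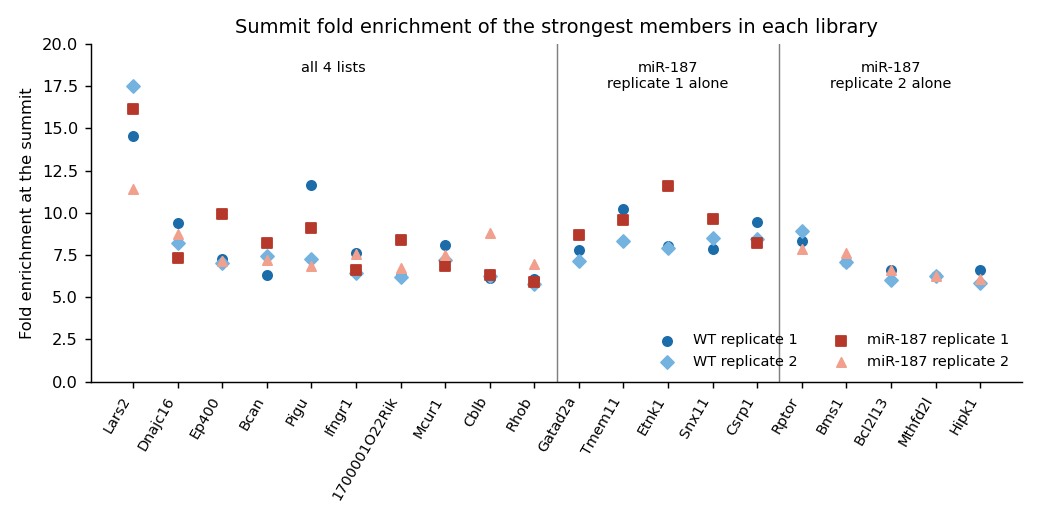
Fold enrichment at the summit (y axis) for the strongest members with a peak in all 4 libraries, in miR-187 replicate 1 but not 2, and in miR-187 replicate 2 but not 1; each point is 1 library. Apart from Lars2, at 11.4 to 17.5, values lie between 5.80 and 11.7. These members were picked for a high rank in each of their lists, WT and miR-187, so that the genotypes intermingle here is no result.

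The widest members owed most of their width to WT replicate 2. Snx3, a sorting nexin of the retromer pathway, spanned 1459 bp, joined from peaks of 641 bp in WT replicate 1, 2 peaks in WT replicate 2 and 383 bp in miR-187 replicate 1. Cast, the calpain inhibitor calpastatin, spanned 1388 bp and was kept in both miR-187 libraries, with peaks of 438, 1270, 439 and 241 bp. Ifrd1, a transcriptional coregulator, spanned 1354 bp and Mpc1, the mitochondrial pyruvate carrier, 1313 bp. At Cast, Ifrd1 and Mpc1 a peak of 1249 to 1313 bp in that library gave nearly the whole width. Folds at these 4 regions were moderate, from 4.17 at Snx3 to 6.96 at Ifrd1.

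Named gene lists, matched by symbol, held 190 of the 1341 member genes in 27 lists. The share kept in each is to be read against the 61.8% of all single-gene boundary regions with a peak in both WT libraries. Counts by library are to be read against all members, of which 95.5% had a peak in miR-187 replicate 1 and 17.1% in replicate 2. Some symbol patterns took in genes that do not do what the list's name says, among them the methyltransferase Eef1aknmt, the kinases Eif2ak1 and Eif2ak4, the chaperone-like Cdc37l1, the signalosome subunit Cops9 and Hspbp1, which binds HSP70. Of 12 regions of oxidative phosphorylation genes with a peak in both WT libraries, 10 were members, 9 in miR-187 replicate 1 and 4 in replicate 2. Ndufa6, a complex I subunit, had folds of 7.39 and 7.73 in WT and 6.16 in miR-187 replicate 1, and Ndufv2 had 6.86, 5.63, 6.90 and 5.65 in all 4. Cycs, cytochrome c, had 5.23, 8.10 and 5.81, the miR-187 value lying between the WT values.

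Mitochondrial ribosomal proteins gave 10 members of 14, all in miR-187 replicate 1 and 2 of them also in replicate 2. Mrpl39 had folds of 10.9, 8.09 and 10.1, and Mrpl17 had 7.65, 7.18, 8.25 and 5.95 in the 4 libraries. Mrps14 had 6.98, 7.09 and 4.65 and Mrps33 had 7.78, 6.67 and 5.11, each below both WT values in miR-187 replicate 1. Mitochondrial import genes gave 4 of 5, with Timm17a at 6.58, 5.46 and 6.40, and Tomm22, Tomm70a and Timm44 as the others. Cytosolic ribosomal proteins gave 8 of 16, none of them in miR-187 replicate 2. Rpl31 had folds of 6.37, 6.09 and 7.29, Rps20 had 6.82, 4.10 and 9.78, and Rpl34 had 5.23, 5.625 and 7.43. Each of them exceeded both WT libraries in miR-187 replicate 1, whereas Rpl27, at 6.55, 7.28 and 5.95, was below both.

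Counts for translation and protein turnover follow, with no test of a difference between lists. Translation factors gave 10 members of 13, with Eif4b at 5.77, 8.21, 6.67 and 5.38 and Eif4g2 at 7.45, 6.48, 6.25 and 5 in all 4 libraries, and Eif5 at 6.36, 6.56 and 5.43. Proteasome genes gave 6 of 12, and Psmd7 and Psmd12, named after their values were seen, were kept in miR-187 replicate 2 alone. Psmc4, an ATPase of the proteasome base, had 5.11, 4.74 and 9.76 and was highest in miR-187 replicate 1, as was Psmd3 at 6.45, 6.05 and 7.21. Psmd11, at 6.91, 6.99 and 6.12, was lowest there, and Psmb2 had 5.88, 6.72 and 5.88. Ubiquitin enzymes gave 8 of 17, with the deubiquitinase Usp8 at 7.05, 11.2 and 4.88, and the E2 enzyme Ube2z kept in all 4 libraries at 5.63, 6.80, 5.49 and 6.10. Chaperones gave 10 of 15, with Dnajc24 at 5.41, 8.31 and 8.33 and Tcp1, a subunit of the TRiC chaperonin, at 6.04, 7.67 and 7.73. Hspbp1, at 7.32, 7.35 and 5.70, was instead below both WT values in miR-187 replicate 1, as Dnajc16 was.

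RNA polymerase II, general factor and Mediator genes gave 6 members of 13, none in miR-187 replicate 2. Med23 had folds of 13.3 and 10.1 in WT and 6.25 in miR-187 replicate 1, below both WT values, while Ccnc, the cyclin of the Mediator kinase module, had 7.61, 7.52 and 7.61. Chromatin remodellers and modifiers gave 13 of 19. Setd2, a histone methyltransferase, had 8.65, 6.89 and 8.17, Ezh2, the catalytic subunit of a Polycomb complex, had 5, 7.32 and 5.56, and Chd8 had 10.9, 5.59 and 5.23. Splicing genes gave 4 of 7, with Snrpe at 4.38, 8.04 and 9.24, Srsf3 at 4.92, 4.57 and 5.45, and Srsf4 at 5.36, 5.06 and 5.61. Hnrnpa0, at 5.24, 5.79 and 4.22, was instead lowest in miR-187 replicate 1. Zinc finger genes were the most numerous list, with 48 of 83 kept, 47 in replicate 1 and 7 in replicate 2. Zfp619 had 6.38, 8.59 and 9.5, Zfp560 had 7.86, 6.35 and 9.15, and Zfp963 had 6.55, 8.13 and 9.57. Zfp788, at 8.14, 8.24 and 6.73, was instead lowest in miR-187 replicate 1.

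Cell cycle and DNA replication genes gave 14 members of 19, 13 in replicate 1 and 5 in replicate 2. Gins4, of the replicative helicase, had folds of 6.82, 7.24 and 9.38, and Gins2 had 5.19, 6.88 and 8, so both were highest in miR-187 replicate 1. E2f5 was kept in all 4 libraries at 5.21, 7.98, 6.02 and 5.41. Vesicle and endosome traffic gave 23 of 41, all in miR-187 replicate 1. Rab1a, a GTPase of early secretory traffic, had 8.50, 5.46 and 6.85, and Rab32 had 8.52, 6.29 and 9.88. Of the 12 cohesin genes, loader and regulators, 2 had a single-gene boundary region with a peak in both WT libraries, Ctcf and Esco2, and neither region had one in a miR-187 library. Their WT folds were 5.39 and 5.25 at Ctcf and 4.88 and 5.46 at Esco2. Mau2 is the partner of NIPBL in loading cohesin. Peaks within 1 kb of its boundary were listed in both WT libraries and in miR-187 replicate 1. Mau2 had no single-gene boundary region with a peak in both WT libraries, and so no member.

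**Figure D5:**
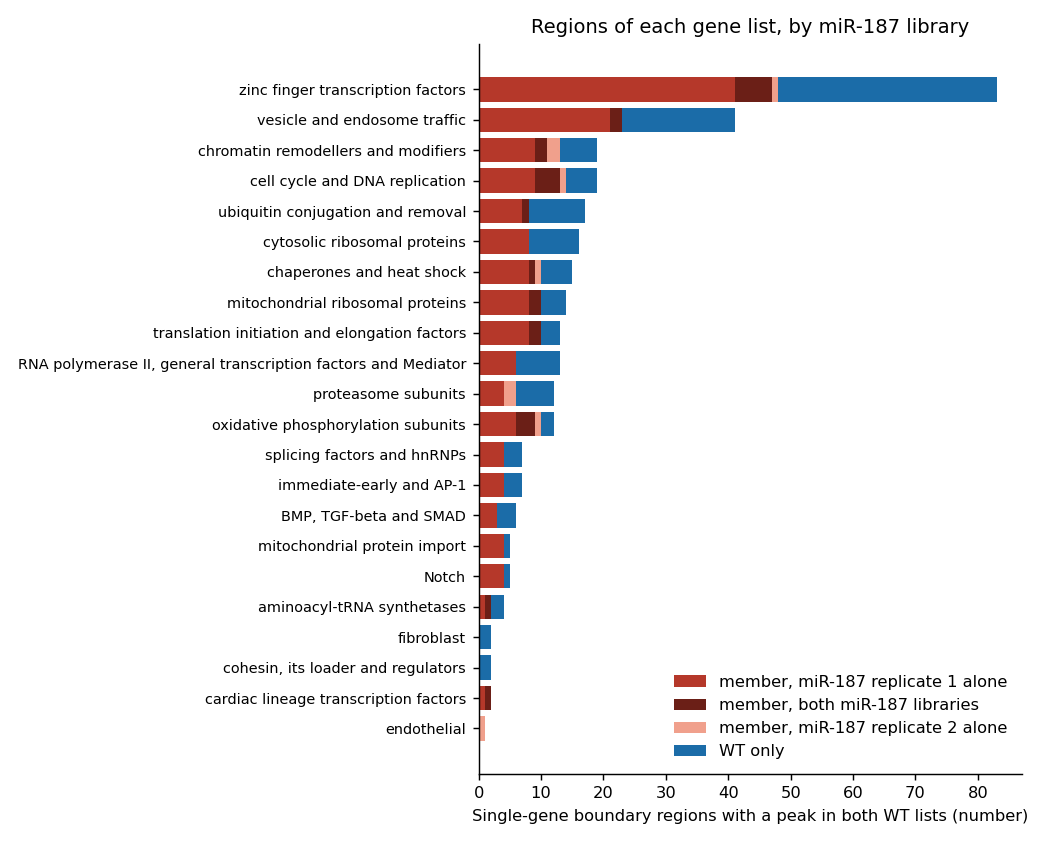
Number of single-gene boundary regions with a peak in both WT libraries (x axis) for each gene list that had any (y axis), divided by the miR-187 library that held a peak. Zinc finger genes are the largest list with 48 members and 35 WT-only regions; most list members were held in miR-187 replicate 1 alone.

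Signalling and heart genes had few members. Among BMP, TGF-beta and SMAD genes 3 of 6 were kept, all in miR-187 replicate 1 alone. Acvrl1, the endothelial TGF-beta family receptor ALK1, had folds of 8.33 and 7.89 in WT and 6.58 in miR-187 replicate 1, Smad3 had 6.38, 4.76 and 7.26, and Smad4 had 4.89, 3.70 and 4.88. The WT-only genes of that list were Id2, Id3 and Tgfbr1. The Notch list kept 4 of 5. The coactivators Maml1 and Maml2 had 4.81, 5.25 and 7.73, and 5.81, 3.13 and 7.66, both highest in miR-187 replicate 1. The receptor gene Notch4, kept at its end and 904.5 bp inside, had 4.37, 4.44 and 5.99.

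Both cardiac lineage regulators with an eligible region were kept. Tbx3, a T-box repressor of the conduction system, had folds of 5.10, 6.76 and 6.10, and Zfpm1 (FOG1), a GATA cofactor, was kept in all 4 libraries at 5.26, 5.57, 5.07 and 5.49. Immediate-early genes gave 4 members of 7, Klf2, Ccn2, Dusp1 and Atf3. Klf2, a shear-responsive endothelial factor, had 5.19, 4.09 and 6.34, and the stress gene Atf3 had 3.96, 4.08 and 4.28. Folds at Atf3, Ccn2 and Dusp1 were all below 5, and none of the 4 had a peak in miR-187 replicate 2.

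Markers of cell types could hardly enter the members, because few had a single-gene boundary region with a peak in both WT libraries. There was 1 such region for endothelial markers, which was kept, and 2 for fibroblast markers, Col1a1 and Col1a2, which were WT-only. There were 0 for cardiomyocyte, smooth muscle and pericyte, erythroid, immune and epicardial markers, so that none of those could be a member whatever the miR-187 libraries held. Of 24 endothelial markers, 9 had a peak region at a boundary in any library, 3 and 7 in the WT pair and 2 and 1 in the miR-187 pair. The kept region was that of Cdh5, which encodes VE-cadherin. It had folds of 6.35 and 3.95 in WT and 4.29 in miR-187 replicate 2, with 15, 16 and 5 summit reads, and no peak in miR-187 replicate 1. Of 20 cardiomyocyte markers, 2 had a boundary region in any library. A boundary region in any library was found for 5 of 10 fibroblast markers, 1 of 8 of smooth muscle and pericytes, 2 of 9 of immune cells, 2 of 6 of epicardium and 0 of 6 of erythroid cells. In tissue, fewer cells of a type and less open chromatin per cell cannot be told apart. The members thus gave little reading of which cells the libraries held.

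The promoters of members were rich in G, C and CpG. For the 1079 members at a known start, the 300 bases around a listed start of the gene were read (250 before, 50 after). They had a median of 63% G and C and an observed to expected CpG ratio of 0.806. The medians were 62.3% and 0.792 for the 640 WT-only promoters and 56.7% and 0.595 for 16456 protein-coding genes, taking 1 start each. Members held in all 4 libraries had 64.3% and 0.832, those in replicate 2 alone 62% and 0.802. Members and WT-only regions were thus near each other and both above the average gene.

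Motif letters were counted in the same 300 bases on both strands. The SP/KLF GC box GGGCGG was found in 75.4% of member promoters, 70.6% of WT-only promoters and 47.3% of all, and the NF-Y box CCAAT in 44.4%, 40% and 38.9%. The ETS letters CCGGAAG were in 19.2%, 20% and 12.2%, the NRF1 letters GCGCATGC in 6.67%, 7.66% and 3.65%, the BANP letters CTCGCGAG in 2.87%, 2.81% and 1.28%, and the CREB/ATF letters TGACGTCA in 4.63%, 3.28% and 2.42%. These motifs had higher shares in members than over all promoters. For WT-only promoters the Wilson intervals of the NF-Y box (36.3% to 43.8%) and of the CREB/ATF letters (2.16% to 4.96%) include the share over all promoters. The YY1 letters AAGATGGC were in 3.99%, 5.94% and 3.23%, and the E-box CACGTG, which MYC and USF can bind, in 9.18%, 12.8% and 7.96%. The TATA box TATAAA was in 5.0%, 5.78% and 13.5%, the AP-1 letters TGANTCA in 4.36%, 4.22% and 7.17%, and the GATA letters AGATAA in 3.43%, 5.47% and 9.87%, all scarcer in both sets than in the average promoter. A match describes letters, not binding, and matches of different motifs may overlap; in Cblb a GC box and a CCAAT box lie side by side without a gap.

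Kept shares by chromosome ranged from 52.8% on chromosome 19 (38 of 72) to 67.7% on chromosome 15 (63 of 93). The genes Cltc (clathrin heavy chain) and Rap2b (a RAS-family GTPase) had 2 member regions each and were picked out after their values were seen. At Cltc the regions lay 35.5 bp inside and 558.5 bp before the start, with folds of 3.73, 5.47 and 4.69, and 4.14, 4.5 and 5.38. At Rap2b they lay 682.5 and 48 bp before the start, with folds of 5.38, 4.60 and 5.69, and 4.17, 4 and 4.1. At the 1 kb limit, the outermost member was Ccin (chr4:43982345-43982706), 978.5 bp from the gene boundary with folds of 7.55, 8.52 and 8.33. The nearest kept region outside (chr17:5491292-5491798) lay 1017 bp from a boundary with folds of 6.25, 4.3 and 5.16.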

How the data were processed

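ATAC-seq peak lists, 1 per library in narrowPeak layout, were analysed for 2 WT and 2 miR-187 libraries. The submitters' processing notes name FastQC, Bowtie2 2.2.6, SAMtools 1.10, deepTools 3.3.2, MACS2 2.2.7.1, ChIPseeker, DiffBind, HOMER 4.11 and build mm10. Read shifting for the transposase, duplicate and mitochondrial read handling and any control are not given in the sources used here. The deposited lists hold peak start, end and summit and a score (the whole part of 10 times the −log10 q). They also hold a fold enrichment (ratio of pileup to background, with 1 added to each) and, from the authors' caller, −log10 values of p and q. Peaks were called per library, without pooling. No read counts were given, so fold and −log10 q were used only within a list or side by side.

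Peaks on chromosomes 1 to 19 were merged at 1 bp of overlap, and region midpoints were compared with boundaries of 20661 protein-coding genes (RefSeq, GRCm38.p6). Strand and the listed starts of the promoter sequences came from RefSeq promoter windows, available for 16456 of these genes. Where a region held several peaks of a library, the strongest by −log10 q was used. Summit reads and background were solved from fold and −log10 p within 0.0005, the solver having been tested on simulated data; the lowest background shared by at least 1% of a list's peaks, divided by an assumed fragment of 200 bp, gave the read density. This density is an inference from the lists. Intervals are Wilson 95% intervals. Named genes were the 10 members in all 4 lists with the highest lowest percentile rank, the 5 widest, the 5 strongest in each miR-187 library alone, up to 4 per gene list by mean fold, and the regions nearest the 1 kb limit; others are said to have been chosen after their values were seen. A few genes that this rule names are not reported here. The members and gene lists were chosen with earlier results of these data known. Python 3.11.15, pandas 2.3.3, numpy 2.4.6, scipy 1.17.1 and matplotlib 3.10.9 were used. No test between genotypes was run, because the peaks that chose the members are the readout.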

Additional observations from a re-analysis of the deposited data

How the results depend on the processing

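No paired analysis was possible because the results are descriptions of peak lists and come from no test. A test between the groups was left out because the peaks that chose the members are the readout. With 2 libraries a group, an exact permutation test could also not go below p = 0.33. Counting peaks with −log10 q of at least 5 left 240 members, 42.6% of the eligible regions, 6.25% of them with a peak in miR-187 replicate 2 and 97.1% at gene starts. With the 1461 strongest peaks per list there were 112 members, 52.3% of the eligible, with a median width of 641.5 bp, 35.7% in miR-187 replicate 2 and 95.8% at gene starts. Requiring the miR-187 peak to overlap a WT peak by 50% of both widths gave a kept share of 50.6%, a median width of 584.5 bp and 12.3% in miR-187 replicate 2. A 500 bp window gave 99% at gene starts. Leaving out each library in turn gave 226 to 2247 members, kept shares of 10.5% to 59.0%, median widths of 467 to 608.5 bp and 97.2% to 98.5% at gene starts. The share in miR-187 replicate 2 was 14.7% to 15.9% without a WT library, and has no value without a miR-187 library, where it is fixed. The 226 and 10.5% came without miR-187 replicate 1 and the 2247 without WT replicate 1. The other alternatives, 25 of 48 values, moved the count by less than 1.5 times or stayed within the interval of the value reported; those from the summit mean and the 2 kb window were all among them. In miR-187 replicate 2 a member's summit had a median of 7 reads, and an unlisted peak there is not evidence of closed chromatin; the part of depth was not tested.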
